A study of Mus musculus with 4 samples.

Results

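Extracellular antagonists of bone morphogenetic protein (BMP) and activin signals were followed by RNA sequencing in mouse bone marrow stromal cells after delivery of Cre to cells with floxed Setd2. The 9 genes were Grem1, Nog, Chrd, Fst, Fstl1, Fstl3, Bambi, Twsg1 and Nbl1, taken by name from a table of 44788 genes, and all 9 were found in it. The cells came from C57BL/6J mice with floxed Setd2 alleles (Setd2 fl/fl), the gene of the enzyme that trimethylates lysine 36 of histone H3, and were used at passage 2. The control group received a lentivirus with GFP and the other group one with Cre recombinase, with 2 libraries each, and both were held in puromycin at 2 µg/ml for 4 days. The comparison asks how expression differs after Cre, which is meant to remove the floxed part of Setd2. Counts over the whole gene do not show how complete the removal was or how many cells kept an intact allele. Because no Cre control without floxed alleles is among these samples, loss of Setd2 and Cre itself cannot be told apart. The labels do not state whether the 2 libraries of a group are separate cultures or animals, so the spread between them may be technical. The spread behind each edgeR p-value is also largely borrowed from other genes (median 27.3 prior degrees of freedom, 2 residual).

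Library totals lay between 12371994 and 14315903 counts. Setd2 stood at 107 and 106 CPM (read count normalized to effective library size) in the GFP libraries and at 38.1 and 32.3 CPM in the Cre libraries, 0.331 times the control level on the fitted scale, the direction the labels call for. GFP replicate 2 stood apart in ribosomal RNA: the 18S gene Rn18s-rs5 took 7.45% of its counts, against 1.21% to 2.07% in the other libraries. The 11 stromal markers, such as Pdgfrb and Prrx1, were all detected. They summed to 15682 and 15546 CPM with GFP and to 19512 and 20540 CPM with Cre. Most of each sum was Col1a1 and Col1a2. Col1a1 had 6881 and 6910 CPM with GFP and 9641 and 10160 CPM with Cre. Col1a2 had 7164 and 7069 CPM with GFP and 8439 and 8923 CPM with Cre. Pdgfrb (386 and 389 CPM with GFP, 365 and 382 with Cre) was lower in both Cre libraries. So was Prrx1, at 339 and 322 CPM with GFP and 312 and 293 CPM with Cre. Neither Pdgfrb nor Prrx1 passed the test (edgeR adjusted p = 0.689 and 0.264). Lepr and Eng were also lower in both Cre libraries, Vcam1 was higher in both, and Pdgfra and Nt5e overlapped. In CPM the groups did not overlap for 50% of all tested genes. Macrophage markers were detected too, and the 14 genes summed to 2205 and 2269 CPM with GFP and to 2597 and 2593 CPM with Cre. Lyz2 made up most of each sum, at 1388 and 1409 CPM with GFP and 1685 and 1697 CPM with Cre. Ptprc, Csf1r, Itgam and Fcer1g overlapped between the groups. The 6 endothelial markers summed to only 7.74 to 10.1 CPM per library. At an edgeR adjusted p under 0.05, which 3.74% of all tested genes passed as higher and 3.22% as lower with Cre, 3 stromal markers rose (Thy1, Col1a1 and Col1a2) and 1, Cxcl12, fell. Of the macrophage markers, 5 rose (Cd68, Lyz2, Tyrobp, Mrc1 and C1qb) and 1, Emr1, fell. The part of these cells in the results that follow was not tested. In such bulk libraries, fewer cells of a type and less RNA per cell cannot be told apart.

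BMPs and activins are dimeric ligands that bring together type I and type II receptor kinases, which then phosphorylate SMAD proteins. Secreted antagonists bind the ligand before it reaches the receptor. Gremlin 1, noggin, chordin and the DAN protein act mainly on BMPs, and follistatins mainly on activins. In bone marrow stromal cells BMP signals favour osteoblast formation, and gremlin 1 also marks a population of skeletal stem cells.

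Of the 9 antagonists, 2 fell and 1 rose with Cre. Grem1 fell to 0.522 times its control level, Fstl1 fell by a small amount, and Nbl1 rose by a small amount. Nog, Chrd, Fst, Fstl3, Bambi and Twsg1 did not pass the test. All 9 genes were abundant enough to be tested. A call means an adjusted p under 0.05 in edgeR's quasi-likelihood test, fitted over 14483 genes, of which 6.97% were called (3.74% higher and 3.22% lower in Cre). Calls were lost when a library was left out. Such a fit leaves a group with a single library, so a lost call does not show that the removed library had made it. Without GFP replicate 2, edgeR called 0 genes of any kind, with 2197 (14.6%) at an unadjusted p under 0.05, among them Grem1, Fstl1, Bambi and Nbl1 of the antagonists. Without GFP replicate 1 it called 12 genes (0.0803%) and 0 of the 9 antagonists, with Grem1, Fst and Fstl1 at an unadjusted p under 0.05. Without Cre replicate 1 (3.51% of all genes called) or Cre replicate 2 (2.53%) it called 1 of the 9, Grem1. In all libraries Grem1, Fstl1, Bambi and Nbl1 had an unadjusted p under 0.05, as did 20.9% of all tested genes. The loss without GFP replicate 2 holds for every rise and fall named here.

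**Figure D1:**
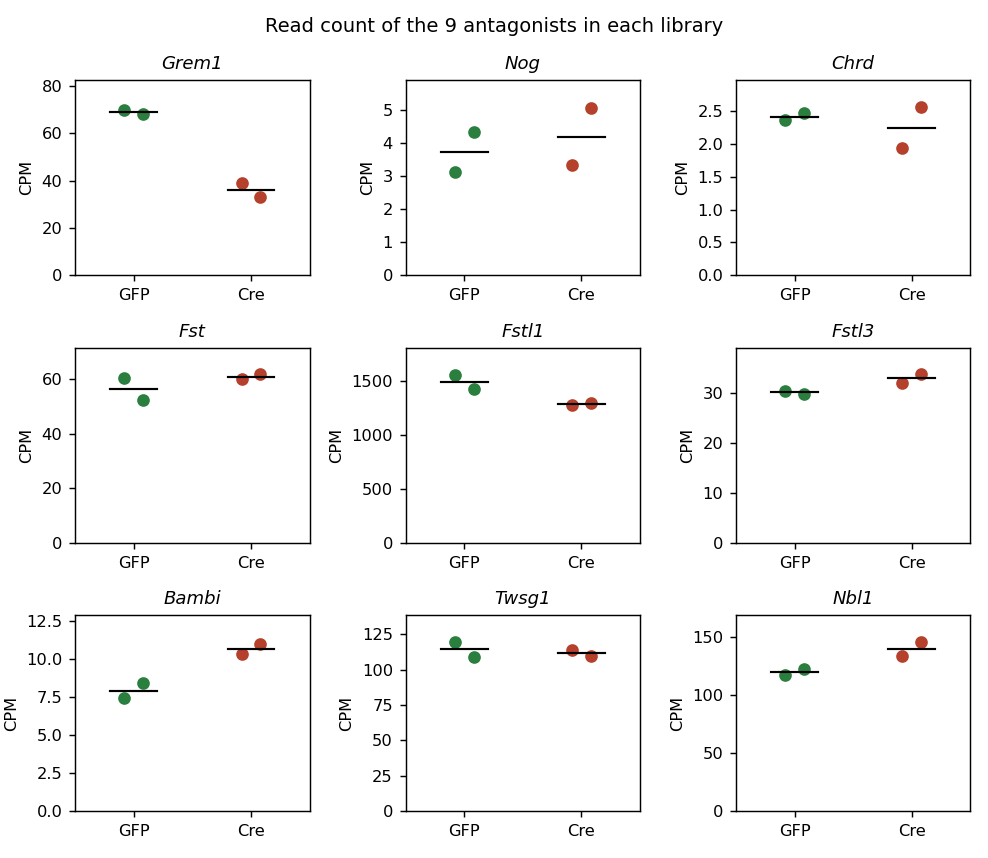
Level of each antagonist in CPM (normalized read count, vertical axis from 0) in the 2 GFP libraries (green) and the 2 Cre libraries (red), with the group mean as a line. Relative to its level, Grem1 showed the widest gap between groups, from 68.3 to 70.1 CPM with GFP and from 33.3 to 39.0 CPM with Cre.

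Grem1 encodes gremlin 1, a secreted cystine-knot protein of the DAN family that binds BMP2, BMP4 and BMP7. The gene lies on chromosome 2 from 113746164 to 113758646 on the minus strand (GRCm38, GENCODE M21), spans 12483 bases and has 2 exons. No exon of another annotated gene overlaps its exons. Its counts were 921 and 802 in the GFP libraries and 563 and 482 in the Cre libraries. Scaled, these were 70.1 and 68.3 CPM with GFP and 39.0 and 33.3 CPM with Cre. Both Cre libraries lay far below both GFP libraries, and the gap between the groups was several times the spread within either. The log2 fold change was -0.94 (standard error 0.08, 95% interval -1.10 to -0.77, edgeR adjusted p = 1.88e-09), which is 0.522 times the control level. Among the 9426 tested genes with a mean of at least 10 CPM, 10 fell this far or further on the fitted scale, Grem1 included. They also included Setd2 and, from the ribosomal and abundant noncoding RNA list, Rn18s-rs5, Lars2, Mir6236, Rnr1 and Rnr2. The genes of that list were highest in GFP replicate 2. Lars2 had 9991 CPM there and 1712 to 2345 CPM in the other libraries. Leaving out GFP replicate 2 gave -0.95 (edgeR adjusted p = 0.186), and leaving out GFP replicate 1 gave -0.92 (edgeR adjusted p = 0.141). The size of the difference thus moved little while the call was lost.

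The stretch just upstream of the Grem1 start is shown because several BMP antagonists are themselves induced by BMP, and the window can be searched for a BMP response motif. It covers 250 bases at chr2:113758649-113758898 on the minus strand (RefSeq, GRCm38.p6), printed from 5′ to 3′ in the direction of the gene, with matches to the searched motifs in capitals.
Grem1 upstream: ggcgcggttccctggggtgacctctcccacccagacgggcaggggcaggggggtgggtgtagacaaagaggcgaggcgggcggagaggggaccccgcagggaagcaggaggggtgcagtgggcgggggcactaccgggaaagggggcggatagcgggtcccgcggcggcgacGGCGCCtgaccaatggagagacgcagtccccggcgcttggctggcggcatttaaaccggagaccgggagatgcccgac
The searched motifs were GGCGCC, which reads the same on both strands and occurs in BMP response elements bound by SMAD proteins, and TATAAA, the core of the TATA box, searched on both strands. Grem1 held 1 GGCGCC, which begins 78 bases before the start, and no TATAAA. Of the 9 antagonists, 6 had an entry in the RefSeq promoter table, and Grem1, Chrd and Nbl1 each held 1 GGCGCC in this window. Over all 32851 promoter entries, 9.59% held GGCGCC and 12.4% held TATAAA. Fstl3 was the only one of the 6 with a TATAAA, which begins 29 bases before its start. The upstream window of Grem1 is 72% G and C and holds 24 CpG dinucleotides. Those of Chrd and Nbl1 are 78% and 77.6% G and C. Fstl1, Fstl3 and Twsg1, which held no GGCGCC, have 68%, 71.2% and 64.4%. GGCGCC is itself all G and C, and the share over all promoters was not matched for this content. A match is a string of letters and no measured binding site.

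A ratio of counts within a library does not depend on how libraries are scaled. Against Nbl1, the ratio of Grem1 counts went from 0.598 and 0.558 with GFP to 0.292 and 0.229 with Cre. Against Fst it went from 1.16 and 1.30 to 0.651 and 0.540. Grem1 thus had more counts than Fst in both control libraries and fewer in both Cre libraries. Against Fstl1 the ratio went from 0.0449 and 0.0478 to 0.0304 and 0.0256. In each of these ratios the groups did not overlap, as was so in CPM for 50% of all tested genes. The ratios were not tested, and they do not show which of the genes moved.

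**Figure D2:**
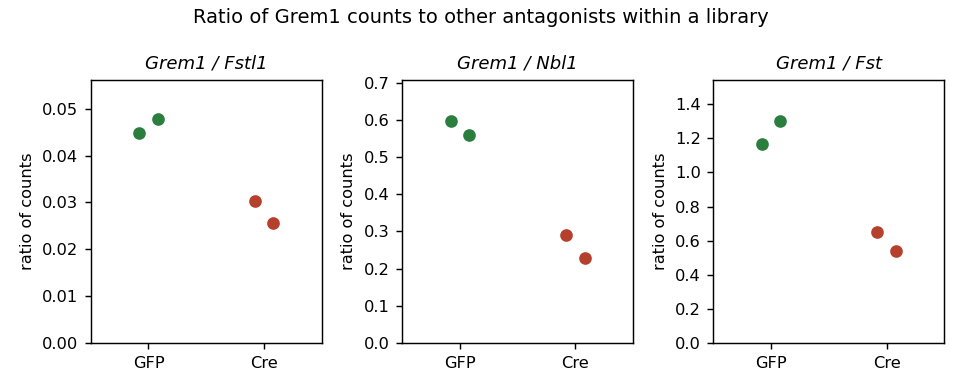
Ratio of Grem1 counts to the counts of Fstl1, Nbl1 and Fst within each library (vertical axes from 0, no unit), for GFP (green) and Cre (red). The ratio to Fst was 1.16 and 1.30 in the GFP libraries and 0.651 and 0.540 in the Cre libraries.

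Nbl1 encodes DAN, the founding member of the cystine-knot family of gremlin 1, a weaker BMP antagonist. It lies on chromosome 4 from 139082284 to 139092993. Its levels were 117 and 122 CPM in the GFP libraries and 134 and 145 CPM in the Cre libraries. The Cre libraries were both higher, although the gap between the groups was no wider than that between the 2 Cre libraries. It rose by 0.22 on the log2 scale (standard error 0.07, edgeR adjusted p = 0.0338). DESeq2 (adjusted p = 0.105) and scaling by library size alone (edgeR adjusted p = 0.0658) did not call it.

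The follistatin group showed no common direction. Fstl1 encodes a secreted glycoprotein of stromal cells that carries a follistatin-like domain and binds BMP4. It lies on chromosome 16 from 37776873 to 37836514 and was the most abundant of the 9. It had 1562 and 1430 CPM with GFP and 1283 and 1301 CPM with Cre. Both Cre libraries were lower, but the 2 GFP libraries were as far apart as the lower of them was from the Cre libraries. Fstl1 fell by 0.21 on the log2 scale (standard error 0.06, edgeR adjusted p = 0.0373, DESeq2 adjusted p = 0.0173). With scaling by library size alone the value was -0.18 (edgeR adjusted p = 0.279).

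Fst encodes follistatin itself, which wraps around activin dimers. It had 60.2 and 52.4 CPM with GFP and 59.9 and 61.7 CPM with Cre, and the groups overlapped. Its log2 fold change was 0.11 with a 95% interval from -0.05 to 0.26 (edgeR adjusted p = 0.456). Fstl3, a related activin and myostatin antagonist, had 30.4 and 29.9 CPM with GFP and 32.1 and 33.9 CPM with Cre, higher in both Cre libraries. Its log2 fold change was 0.13 with an interval from -0.05 to 0.30 (edgeR adjusted p = 0.422). The count of Fstl3 is uncertain. Exons of Prss57, a serine protease gene on the opposite strand, cover 47.3% of the exon bases of Fstl3. Whether the counts kept the strand is not given. Prss57 had 587 and 484 counts with GFP and 609 and 705 with Cre, more than Fstl3 in each library. Fst shares 2.51% of its exon bases with an antisense gene.

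Of the chordin system, neither chordin nor its cofactor moved past the test. Chrd encodes chordin, which holds BMP2 and BMP4 away from their receptors until it is cleaved. It had only 31 and 29 counts with GFP and 28 and 37 with Cre, or 2.36 and 2.47 against 1.94 and 2.56 CPM. The Cre libraries lay on either side of the GFP libraries. Its interval, from -0.63 to 0.43 on the log2 scale, leaves changes of this size undetectable at this depth. Twsg1 encodes twisted gastrulation, which binds both chordin and BMP. It had 120 and 109 CPM with GFP and 114 and 109.5 CPM with Cre. The groups overlapped, and the interval was narrow, from -0.17 to 0.10 (log2 fold change -0.03, edgeR adjusted p = 0.821).

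Nog encodes noggin, a dimeric BMP trap that is itself induced by BMP in osteoblasts. It had 41 and 51 counts with GFP and 48 and 73 with Cre, which correspond to 3.12 and 4.34 CPM against 3.32 and 5.05 CPM. The groups overlapped and replicates of a group differed more than the group means. The interval ran from -0.28 to 0.63 on the log2 scale (edgeR adjusted p = 0.714), and the sign changed when GFP replicate 1 (-0.05) or Cre replicate 2 (-0.16) was left out.

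Bambi is the only membrane protein of the 9, a pseudoreceptor that resembles a type I receptor without its kinase. It had 7.38 and 8.43 CPM with GFP and 10.3 and 11.0 CPM with Cre, and both Cre libraries were above both GFP libraries. Its log2 fold change of 0.43 had the largest value above 0 among the 9 (standard error 0.14, interval 0.15 to 0.72) but missed the threshold (edgeR adjusted p = 0.0567). It passed with a filter of at least 1 CPM in 2 libraries (edgeR adjusted p = 0.0436) and with robust dispersion estimates (edgeR adjusted p = 0.0357). A pseudogene copy, Bambi-ps1, had 4 to 13 counts per library.

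**Figure D3:**
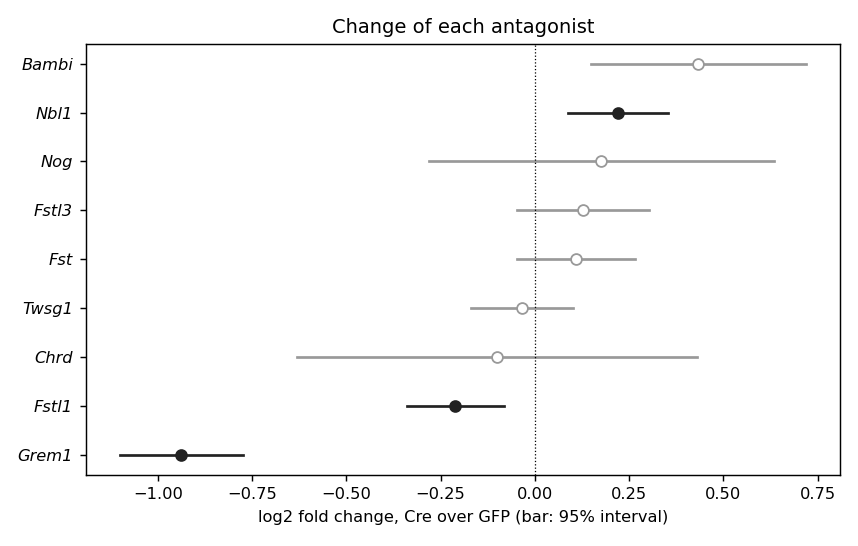
Log2 fold change of Cre over GFP for each antagonist (horizontal axis), with bars for the 95% interval from edgeR and filled points for the 3 genes called. Grem1 stood at -0.94, and the intervals of Chrd and Nog, the 2 genes with the fewest counts, were the widest.

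Viewed as a group, the antagonists spread to both sides of 0. Their median log2 fold change was 0.11, against -0.0045 over all tested genes, and 5 of the 9 values lay above 0. In CPM the 2 groups of libraries did not overlap for 5 of the 9, higher in Cre for Nbl1, Bambi and Fstl3 and lower for Grem1 and Fstl1. Among all tested genes the groups did not overlap in 50% (24.5% higher and 25.5% lower in Cre). The share of the antagonists is near that of all genes. The other scalings, filters and tools, on all 4 libraries, called between 1 and 4 of the 9. DESeq2 called 2, Grem1 and Fstl1 (4.16% of all genes called), and limma-voom called the same 3 as edgeR (7.19%). Only Grem1 was called with scaling by library size alone (3.66%) and without a low-count filter (0.118%). Median-of-ratios factors (6.99%) and removal of the ribosomal and abundant noncoding RNA genes (6.79%) left the same 3, and Bambi was added by robust dispersion estimates (9.21%) and by the filter of at least 1 CPM in 2 libraries (8.34%). The summed level of the 9 was 1973 and 1827 CPM with GFP and 1677 and 1704 CPM with Cre, most of it Fstl1.

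Levels between genes are compared per kilobase of merged exon. Fstl1 stood far above the rest, at 318 and 291 CPM per kilobase with GFP. Nbl1 followed at 57.7 to 60.2, Twsg1 at 21.1 to 23.2 and Grem1 at 16.5 to 16.9 CPM per kilobase with GFP. Fstl3 (12.2 to 12.5) and Fst (11.4 to 13.1) came next and overlapped each other, ahead of Nog (1.84 to 2.56), Bambi (1.45 to 1.66) and Chrd (0.377 to 0.395). With Cre the order changed at Grem1. At 8.03 to 9.39 CPM per kilobase it lay below Fst (13.0 to 13.4) and Fstl3 (13.1 to 13.9), which it had exceeded in both control libraries. Nog and Bambi overlapped with Cre, at 1.96 to 2.98 and 2.03 to 2.17 CPM per kilobase.

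The other extracellular modulators of the pathway also moved both ways. Of 25 listed genes, 8 had no count in any library, where a count of 3 would have corresponded to 0.207 to 0.255 CPM, and 13 were tested. Of these, 2 rose and 2 fell, beside 3.74% and 3.22% of all tested genes, with a median log2 fold change of 0.08 against -0.0045 over all tested genes. The rises were Smoc2 (0.24), of a matricellular protein, and Bmp1 (0.22), the procollagen C-proteinase that also cleaves chordin. The falls were Tll1 (-0.40), of a second chordin-cleaving protease of the same family, and Smoc1 (-0.29), of a matricellular BMP antagonist. Bmp1 had 391 and 384 CPM with GFP and 437 and 466 CPM with Cre, whereas Tll1 went from 41.7 and 41.0 to 32.2 and 30.4 CPM. The count of Bmp1 was 9.38 and 9.35 times that of Tll1 with GFP and 13.5 and 15.3 times with Cre. The 2 proteases thus went opposite ways, a pair picked after its values were seen. DESeq2 called 2 of the 13, scaling by library size alone left 1, and no low-count filter left 0 (0.118% of all genes called). Leaving out Cre replicate 1 or Cre replicate 2 left 1 each, and leaving out GFP replicate 1 left 0.

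Among the ligands that the antagonists bind, 1 of 8 tested BMP and GDF genes passed, a share not far from the 6.97% of all tested genes. Gdf7, a ligand of the BMP family, had 2.97 and 2.13 CPM with GFP and 5.74 and 4.84 CPM with Cre. It rose by 1.04 on the log2 scale (standard error 0.22, interval 0.60 to 1.48, edgeR adjusted p = 0.00239) from 39 and 25 counts to 83 and 70. DESeq2 called 0 of these ligands, and edgeR called 0 without GFP replicate 1 or with no low-count filter. DESeq2 gave no adjusted p for 7 of these 8 ligands, so its 0 calls cannot speak to most of them. Bmp4 had 14.3 and 11.6 CPM with GFP and 13.4 and 13.7 CPM with Cre (log2 fold change 0.06, interval -0.19 to 0.32). The most abundant ligand gene per kilobase was Inhba, of the activin A subunit, at a mean of 53.6 CPM per kilobase with GFP and 57.5 with Cre (log2 fold change 0.10, interval -0.04 to 0.25). Inhbb, of the other main activin subunit, stood at 10.9 and 11.3 CPM per kilobase (log2 fold change 0.05). Of 3 activin and myostatin ligand genes tested, edgeR called 0, beside 6.97% of all tested genes. There were 0 at an unadjusted edgeR p under 0.05, beside 20.9% of all tested genes. DESeq2 and limma-voom called 0, beside 4.16% and 7.19% of all genes. Fst had 0.171 and 0.157 times the counts of Inhba with GFP and 0.150 and 0.183 times with Cre, and these ranges overlapped.

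Among receptors and coreceptors 2 of 12 tested genes rose and 0 fell, beside 3.74% and 3.22% of all tested genes, with a median log2 fold change of -0.13. At an unadjusted p under 0.05 there were 7 of the 12, beside 20.9% of all tested genes, and 5 of these 7 had lower fitted levels with Cre. They were Bmpr1b (log2 fold change -0.59), Acvr2a (-0.34), Bmpr1a (-0.17), Neo1 (-0.16) and Bmpr2 (-0.16), which encode receptors of BMPs or activins or, for Neo1, of repulsive guidance molecules; all but Neo1 are named after their values were seen. Robust dispersion estimates called 1 of the 12 lower beside the 2 higher. Acvrl1, the type I receptor ALK1 of BMP9 and BMP10, had 33.6 and 37.3 CPM with GFP and 46.6 and 46.8 CPM with Cre (log2 fold change 0.40, edgeR adjusted p = 0.00194). Rgma, a membrane-anchored BMP coreceptor, rose from 3.81 and 4.60 to 6.92 and 5.67 CPM (0.59, edgeR adjusted p = 0.0481). That call was lost in limma-voom, which called 1 of the 12. DESeq2 also called 1 of the 12, but gave no adjusted p for 3 of them. The most abundant genes of this list per kilobase were Neo1, Eng, an accessory receptor (log2 fold change -0.10), and Acvr1, a type I receptor (0.02), and none of them passed. Of the 2 calls, scaling by library size alone, removal of the ribosomal and abundant noncoding RNA genes, and leaving out Cre replicate 1 each left 1. Leaving out GFP replicate 1, or using no low-count filter, left 0.

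The SMAD proteins and their intracellular inhibitors showed the smallest range of values of the 6 lists, which were not matched for counts. The least abundant SMAD gene, Smad9, had 245 to 309 counts per library. The outermost ligand genes, Gdf7 and Bmp8b, had only 25 to 83 and 8 to 19. Of 14 tested genes edgeR called 0, beside 6.97% of all tested genes. Smad2 (-0.14) and Skil (-0.14) had an unadjusted edgeR p under 0.05, as did 20.9% of all tested genes. DESeq2 and limma-voom called 0, beside 4.16% and 7.19% of all genes. Values ran from -0.14 to 0.02 on the log2 scale with a median of -0.03. Smad6 (-0.02) and Smad7 (-0.01), inhibitory SMADs that BMP signals induce, had intervals from -0.17 to 0.13 and from -0.15 to 0.14.

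Of 14 tested BMP target genes, 3 rose and 0 fell in edgeR, with a median of 0.21 against -0.0045 over all tested genes, and 10 of the 14 lay above 0. Background shares are those given above, 3.74% higher and 3.22% lower. At an unadjusted p under 0.05 in edgeR there were 7 of the 14, beside 20.9% of all tested genes. Among the 7, Dlx2 (0.64), Msx2 (0.38) and Dlx5 (0.25) were not called, and are named after their values were seen. Id2, an inhibitor of helix-loop-helix transcription factors, went from 71.5 and 66.0 to 85.0 and 89.8 CPM (0.34, edgeR adjusted p = 0.00193). Atoh8, a helix-loop-helix factor, went from 57.0 and 59.1 to 68.0 and 70.5 CPM (0.25, edgeR adjusted p = 0.0255). Sp7, the osteoblast factor osterix, rose by 0.52. Id1 (0.18, edgeR adjusted p = 0.245) and Id3 (0.18, edgeR adjusted p = 0.0833), the best known immediate targets, did not pass, although both Cre libraries were above both GFP libraries for each. Smad6 and Smad7 belong to this list as well. DESeq2 called 1 of the 14, robust dispersion estimates gave 5, and leaving out Cre replicate 2 or GFP replicate 1 left 0. A link between the level of Grem1 and these genes was not tested.

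**Figure D4:**
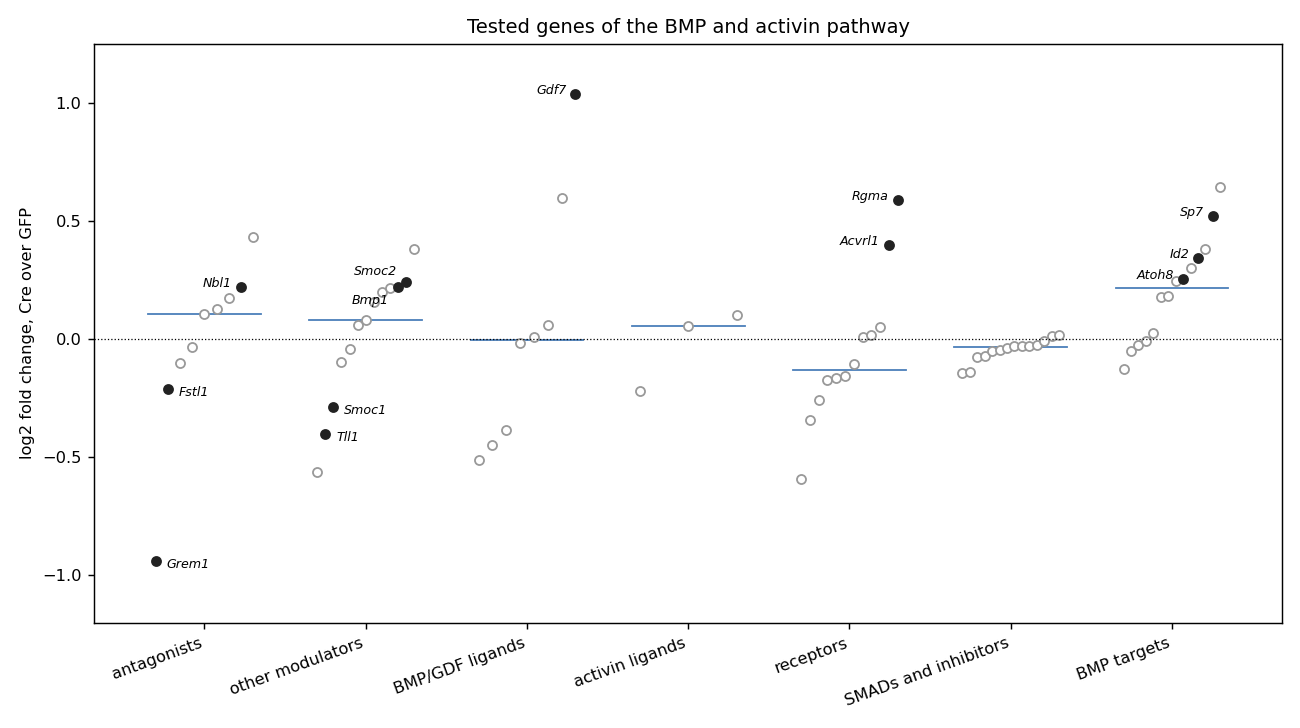
Log2 fold change of Cre over GFP (vertical axis) for the tested genes of each list (horizontal axis), ordered by value within a list, with filled named points for genes called by edgeR and a blue line at the list's median. The SMAD list lay between -0.14 and 0.02, while Grem1 at -0.94 and Gdf7 at 1.04 were the outermost points.

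The neighbours of Grem1 on chromosome 2 were mostly at or near 0 counts. Of 12 other table genes whose start lies within 500 kb of the start of Grem1, 4 were abundant enough to be tested. Fmn1, the formin gene whose introns hold limb enhancers of Grem1, starts 430.9 kb away and runs toward it on the opposite strand. It had 1175 and 1279 counts with GFP and 1477 and 1241 with Cre, which overlapped after scaling (log2 fold change -0.07, standard error 0.08, edgeR adjusted p = 0.661). Scg5, the gene next to Grem1 on the other side, had 2 counts in 1 Cre library and 0 in the others. Arhgap11a, a GTPase-activating protein gene 90.02 kb away, fell by 0.37 (edgeR adjusted p = 0.00867), and Aqr, an RNA helicase gene 428.4 kb away, fell by 0.23 (edgeR adjusted p = 0.0470). Zfp770 stood at -0.19 (edgeR adjusted p = 0.445). Grem1 thus had the largest fall of the 5 tested genes in this window.

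Likeness to Grem1 was measured as the Euclidean distance between log2 CPM values centred over the 4 libraries, among 9425 other genes with a mean of at least 10 CPM. The 5 nearest were Ifit1, an interferon-induced gene (0.0742), Adamts9, a proteoglycan-cleaving protease gene (0.0961), Pcdh18, a protocadherin gene (0.183), Timp3, a metalloproteinase inhibitor gene (0.190), and Vcan, of the proteoglycan versican (0.199). With 4 libraries in 2 groups this mainly finds genes with a fall of like size. Their log2 fold changes were -0.90, -0.89, -0.77, -0.78 and -0.75.

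**Figure D5:**
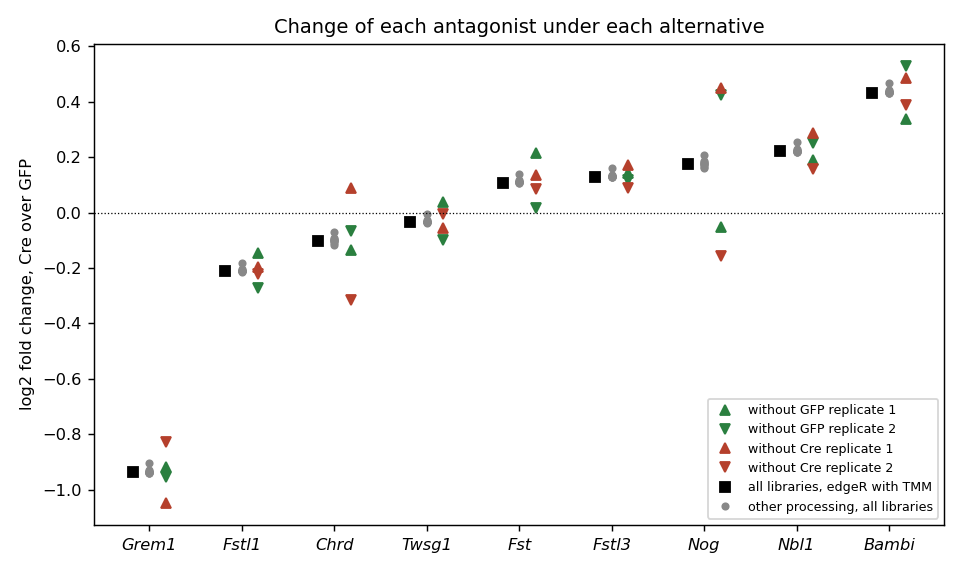
Log2 fold change of each antagonist (vertical axis) in all libraries with edgeR and TMM scaling (black squares), under the other processing choices on all libraries (grey points) and without 1 library (triangles). Grem1 lay between -1.05 and -0.83 throughout, while leaving out 1 library moved Nog from 0.45 to -0.16.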

How the data were processed

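RNA sequencing counts were compared between 2 GFP and 2 Cre libraries of Setd2 fl/fl bone marrow stromal cells. The deposited values are whole-number read counts per gene with no normalization. Libraries were made with the Illumina TruSeq RNA kit from total RNA, per the labels' protocols, and the aligner HISAT2 and the build GRCm38 are named, per the submitters' processing notes. Not given in the sources used here are the counting program, its annotation and its rules for strand and multiply mapped reads.

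Counts were tested with edgeR 4.0.16 in R 4.3.3, with filterByExpr (minimum count 10, total 15), TMM scaling, group as the only term and Benjamini-Hochberg adjustment over all tested genes at 0.05. The standard error is the log2 fold change divided by the square root of F, and 95% intervals use it with the moderated degrees of freedom. Test scripts were checked on simulated counts. Merged exon lengths came from GENCODE M21, where 132 of 136 listed genes had a model, and 2 listed genes were found under an older symbol. All p-values are two-sided. Library totals of 12371994 to 14315903 counts limit precision for genes under about 100 counts. The floor of 3 counts gives only the CPM that 3 counts would correspond to, and is no measure of error. Reads carry no molecular identifiers.

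The 9 antagonists and all gene lists were chosen with earlier results of these data known. Named genes were the 9 antagonists, Setd2, called list members at a mean of at least 1 CPM, the 3 most abundant ligand and receptor genes, the tested neighbours of Grem1 and the 5 genes most like it. Alternatives were median-of-ratios factors, library size alone, DESeq2 1.42.0, limma-voom (limma 3.58.1), other filters, a replicate block, robust dispersion, removal of ribosomal and abundant noncoding RNA genes, and leaving out each library. A listed modulator gene is not reported here. DESeq2 gave an adjusted p for 9148 genes, not including Nog, Chrd and Bambi. It gave none for 7 of 8 tested BMP and GDF ligands and 5 of 13 other modulators. The same holds for 3 of 12 receptors and coreceptors and 3 of 14 BMP target genes.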

Additional observations from a re-analysis of the deposited data

How the results depend on the processing

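The log2 fold change of Grem1 kept its sign and its call in each of the 9 alternatives run on all 4 libraries, though without a low-count filter its edgeR adjusted p was 0.0450. Leaving out 1 library gave -1.05 to -0.83, with the call lost without either GFP library, and Setd2 gave -1.71 to -1.48, lost without GFP replicate 2. Leaving out 1 library reversed the sign of Chrd (-0.31 to 0.091, reversed without Cre replicate 1), Nog (-0.16 to 0.45, reversed without GFP replicate 1 or Cre replicate 2) and Twsg1 (-0.099 to 0.037, reversed without GFP replicate 1). The cause was not tested.

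Of all tested genes edgeR called 1009 (542 higher, 467 lower). Scaling by library size alone gave 530 (347 higher, 183 lower), DESeq2 381 (244 higher, 137 lower), and no low-count filter 30. DESeq2 gave no adjusted p for some listed genes, among them 7 of the 8 BMP and GDF ligands. Leaving out 1 library gave 0 to 516. Of the 9 antagonists, 3 were called, and 1 was called with library size alone, 1 with no low-count filter, and 0 to 1 without 1 library. For the 4 calls among other modulators the counts were 1 with library size alone, 2 in DESeq2, 0 with no filter, and 0 to 1 without 1 library. For the 1 ligand call they were 0 in DESeq2, 0 with no filter, and 0 to 1 without 1 library. For the 2 receptor calls they were 1 with library size alone, in DESeq2, in limma-voom and without the ribosomal and abundant noncoding RNA genes, 0 with no filter, and 0 to 2 without 1 library. For the 3 target calls they were 1 in DESeq2, 0 with no filter, 5 with robust dispersion, and 0 to 2 without 1 library. The SMAD and activin lists had 0 calls in each alternative run.

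The labels number the replicates alike in both groups without saying that a number marks a shared culture or day, and deviations of same-numbered libraries from their group means did not correlate across genes (r = -0.00886). With the replicate number as a block edgeR called 829 genes, 1 of the 9 antagonists (Grem1, log2 fold change -0.94) and 1 of the receptors; Fstl1 (adjusted p = 0.0717) and Nbl1 (adjusted p = 0.0538) did not pass.

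For Chrd and Nog, with fewer than 100 counts per library, the depth leaves wide intervals.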
